A study of Mus musculus with 6 samples.

Results

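The genes described here encode the elastic and crosslinking scaffold of the muscle sarcomere: titin (Ttn), nebulin (Neb), myotilin (Myot), the sarcomeric alpha-actinins (Actn2 and Actn3), skeletal myosin-binding proteins C (Mybpc1 and Mybpc2) and the myomesins (Myom1 and Myom2). They were chosen by name for their place in the sarcomere, with no threshold on measured values but with earlier results of these data known. They are 9 of the 54232 Ensembl gene identifiers counted. Esophageal RNA was sequenced after the mice had drunk the carcinogen 4-nitroquinoline 1-oxide (4-NQO), in 3 libraries from mice injected with DTA-1 and 3 from mice injected with an isotype control antibody. DTA-1 is an agonist antibody against GITR, a co-stimulatory receptor of T cells. All mice began 4-NQO at 8 weeks of age, drank it at 100 µg/ml for 16 weeks, returned to water for another 12 weeks, and received 10 µg of antibody into the peritoneum 2 times a week over the last 2.5 weeks. The esophageal tissue was peeled and enriched for invading tumor cells before it was minced and frozen. The labels give no strain or sex and do not say that each library is 1 mouse, so p-values measure the spread among the 6 samples, part of which may be technical.

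A sarcomere is the contractile unit of striated muscle, bounded by Z-discs that anchor thin actin filaments and crossed in its middle by the M-band that holds thick myosin filaments together. Titin spans from the Z-disc to the M-band as a molecular spring, and nebulin runs along the thin filament and helps to set its length. In the mouse the outer muscle coat of the esophagus is striated along most of its length, unlike the human esophagus, whose lower part is smooth muscle. This muscle coat lies outside the squamous epithelium, in which 4-NQO tumors arise. In bulk tissue, more muscle cells in a sample and more of a transcript per muscle cell cannot be told apart.

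The libraries held 23766069 to 23914043 counts with DTA-1 and 23147873 to 29065162 counts with isotype. The markers of striated muscle were present in every library: the 24 genes of the striated muscle reference list, which holds none of the 9 genes, summed to 113507, 167831 and 123780 CPM (read counts normalised for library size with TMM factors) over DTA-1 replicates 1 to 3, and to 69239, 51024 and 108666 CPM over isotype replicates 1 to 3. The 8 heart markers summed to 178 to 311 CPM with DTA-1 and 157 to 215 CPM with isotype. Most of this came from Tnnt2, which immature skeletal muscle also makes. Myl4 was highest in DTA-1 replicate 3 at 43.1 CPM, and Nppb in DTA-1 replicate 1 at 9.77 CPM. Myl7 was highest in isotype replicate 1 at 3.68 CPM, and Tnni3 in isotype replicate 3 at 1.33 CPM. Myh6, Nppa and Mybpc3 had at most 0.214 CPM in any library. Of squamous markers, the 8 differentiated genes summed to 5568 to 18388 CPM in DTA-1 and 17570 to 39562 CPM in isotype libraries, and all 8 had negative fold changes. The 7 basal squamous genes, also all with negative fold changes, summed to 3233 to 10932 CPM with DTA-1 against 4555 to 16486 CPM with isotype. The 8 satellite cell and regeneration markers all had positive fold changes; Myh8, the perinatal myosin, had 17372 to 28646 CPM with DTA-1 against 6471 to 20252 CPM with isotype, and the other 7 summed to 74.5 to 135 CPM with DTA-1 against 51.9 to 83.8 CPM with isotype. The 7 smooth muscle markers that are not in the Z-disc list summed to 844 to 8568 CPM with DTA-1 against 798 to 7795 CPM with isotype. Red cell markers stood apart in DTA-1 replicate 2, at 2895 CPM against 85.0 to 171 CPM in the other libraries, as did adipocyte markers in DTA-1 replicate 3, at 1393 CPM against 141 to 481 CPM in the others. By the median chi-square per gene, the most alike pair of libraries crossed the groups: DTA-1 replicate 1 and isotype replicate 3 differed by 3.98, against 5.75 to 14.1 between DTA-1 libraries and 6.46 to 17.0 between isotype libraries. A likeness of the samples and an exchange of the labels of these 2 libraries cannot be told apart here, and results without either library are given with the 9 genes. The part of these other cell types in the results on the 9 genes was not tested.

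Promoters of only 5 of the 9 genes were examined, taken from the RefSeq table (GRCm38.p6). These promoters cover 250 bases before to 50 bases after the start. They are shown for Ttn, the gene with the largest fold change, for Actn2, and for the paralog pair Mybpc1 and Mybpc2, whose ratio varied between libraries. Capitals mark matches, on either strand, to the E-box CANNTG, to the M-CAT element CATTCC and to the MEF2 motif, which are known as sites for myogenic bHLH, TEAD and MEF2 factors. None of the marked matches overlap each other.
Ttn (chr2:76982498-76982797, minus strand): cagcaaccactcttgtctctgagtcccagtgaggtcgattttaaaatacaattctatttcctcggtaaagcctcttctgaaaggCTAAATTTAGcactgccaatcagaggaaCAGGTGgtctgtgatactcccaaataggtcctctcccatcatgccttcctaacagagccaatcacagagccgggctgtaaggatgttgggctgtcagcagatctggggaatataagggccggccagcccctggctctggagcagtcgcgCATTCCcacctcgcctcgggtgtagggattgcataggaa
Actn2 (chr13:12340683-12340982, minus strand): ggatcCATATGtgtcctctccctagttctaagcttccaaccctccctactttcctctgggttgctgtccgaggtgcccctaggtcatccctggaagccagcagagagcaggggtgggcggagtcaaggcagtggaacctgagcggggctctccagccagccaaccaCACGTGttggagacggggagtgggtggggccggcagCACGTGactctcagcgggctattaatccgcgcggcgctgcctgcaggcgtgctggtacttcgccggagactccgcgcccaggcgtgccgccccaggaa
Mybpc1 (chr10:88605103-88605402, minus strand): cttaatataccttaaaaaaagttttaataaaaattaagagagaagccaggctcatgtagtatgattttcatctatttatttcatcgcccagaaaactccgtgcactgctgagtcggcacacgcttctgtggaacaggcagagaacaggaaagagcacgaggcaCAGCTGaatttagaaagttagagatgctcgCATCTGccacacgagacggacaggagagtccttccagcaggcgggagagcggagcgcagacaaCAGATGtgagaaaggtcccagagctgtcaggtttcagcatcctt
Mybpc2 (chr7:44524620-44524919, minus strand): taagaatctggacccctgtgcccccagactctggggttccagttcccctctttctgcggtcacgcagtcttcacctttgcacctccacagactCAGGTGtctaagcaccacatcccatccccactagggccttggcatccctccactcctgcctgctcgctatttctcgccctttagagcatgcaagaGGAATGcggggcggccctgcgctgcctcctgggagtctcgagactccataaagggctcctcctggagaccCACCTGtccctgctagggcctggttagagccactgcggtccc
The Ttn promoter held 1 match to each of the 3 motifs, the MEF2 match beginning 166 bases and the E-box 138 bases before the start. E-boxes numbered 3 in Actn2, 3 in Mybpc1 and 2 in Mybpc2, and Mybpc2 also held 1 M-CAT element. Among all 32851 promoters of this length, 72.3% held an E-box, 14.7% an M-CAT element and 3.19% a MEF2 match, so an E-box is common in any such window. In the promoter given for Myom1, whose RefSeq start lies 16.9 kb inside the annotated gene, there were 3 E-boxes and 1 CArG box, the motif of serum response factor, which 1.63% of all promoters held. A match is a description of the letters and does not show binding.

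Under TMM scaling, the 9 scaffold genes averaged higher in DTA-1 than in isotype libraries, by 1.47-fold for Actn2 to 1.94-fold for Ttn. Relative to other muscle transcripts 6 of the 9 averaged lower, and none passed the test on either scale. Of all genes tested, 14.4% passed it on the scale of other muscle transcripts, 2 of them higher and the others lower. Log2 fold changes, DTA-1 over isotype, ran from 0.56 to 0.96 with a median of 0.83, against a median of -0.03 over all 15763 genes tested. A positive fold change was found for 47.1% of all genes tested, and 10.5% of them had one above that of Actn2, the smallest of the 9. By edgeR's quasi-likelihood test with Benjamini-Hochberg adjustment over all genes tested, the adjusted p of the 9 genes lay between 0.39 and 0.573. That test called 0 genes anywhere in the table, its lowest adjusted p being 0.39. Ttn and Mybpc1, 2 of the 9 genes, were higher at an unadjusted p under 0.05, against 821 genes or 5.21% of all tested (7.52% were lower, none of them among the 9). DESeq2 called 180 genes, 1.12% of the 16084 to which it gave an adjusted p, and none of the 9, whose smallest adjusted p was 0.113 for Ttn. At an unadjusted p under 0.05 DESeq2 counted 6 of the 9 as higher, against 3.84% of the 29117 genes to which it gave a p. Those 29117 genes were not filtered for low counts, unlike the 15763 tested with edgeR.

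Together the 9 genes took 2.17%, 3.03% and 2.26% of all counts over DTA-1 replicates 1 to 3, against 1.38%, 1.22% and 2.04% over isotype replicates 1 to 3. The DTA-1 libraries all lay above the isotype libraries, with isotype replicate 3 close behind DTA-1 replicate 1. The mean was 2.49% ± 0.468 for DTA-1 and 1.54% ± 0.438 for isotype (SD over 3 libraries). No gene of the 9 had fewer than 14968 reads in any library, so counting error was at most 0.817% of a value. The spread described here is between libraries, and part of it may be technical. The 95% Wilson intervals of the shares, which cover counting error only, were at most 0.0069 percentage points to either side.

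**Figure D1:**
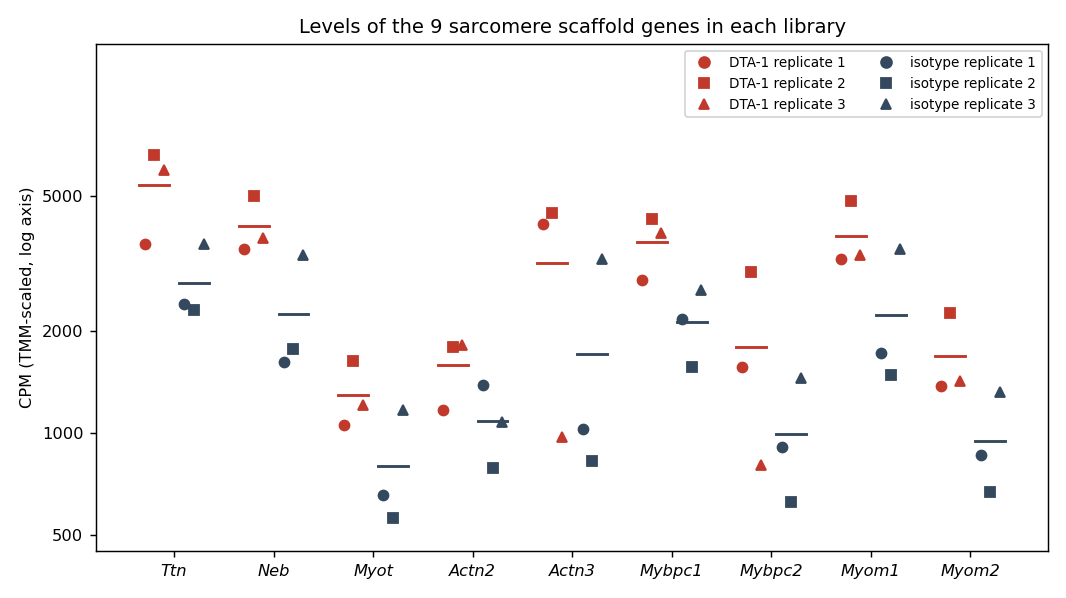
TMM-scaled CPM (log axis) of the 9 sarcomere scaffold genes, with DTA-1 libraries (red) left of isotype libraries (dark blue) for each gene. Points are libraries, marked by replicate number, and bars are group means (n = 3 each). DTA-1 replicate 2 was the highest library for 8 of the 9 genes and isotype replicate 2 the lowest for 8 of the 9, while isotype replicate 3 sat within the DTA-1 range for 5 of the 9.

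Titin and nebulin, the giant proteins of the sarcomere, gave the largest read totals of the 9 genes over the 6 libraries. Ttn (ENSMUSG00000051747, chromosome 2, 76703980 to 76982547, minus strand, GENCODE M21 on GRCm38) has 116.83 kb of annotated exon sequence in 345 merged exons. It stood at 3605, 6601 and 5941 CPM over DTA-1 replicates 1 to 3, against 2406, 2307 and 3608 CPM over isotype replicates 1 to 3. The groups touched at a single point, isotype replicate 3 lying just above DTA-1 replicate 1. Under scaling by library totals alone they did not overlap, and 5.16% of all genes there had the DTA-1 libraries all above the isotype ones. Ttn averaged 5382 ± 1574 CPM under DTA-1 and 2774 ± 724 CPM under isotype (SD over 3 libraries), a log2 fold change of 0.96 ± 0.36 (SE) with an adjusted p of 0.39 in edgeR. Many isoforms of titin share the gene, and a count per gene does not tell them apart.

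Neb (ENSMUSG00000026950, chromosome 2, 52136647 to 52378474, minus strand) has 26.58 kb of exon sequence in 166 merged exons. Its levels were 3488, 5004 and 3744 CPM over DTA-1 replicates 1 to 3, against 1615, 1773 and 3356 CPM over isotype replicates 1 to 3. The groups did not overlap, but isotype replicate 3 came close to DTA-1 replicate 1. The log2 fold change was 0.86 ± 0.38 (SE), with an adjusted p of 0.397 in edgeR. Ttn and Neb each overlap an antisense gene, Gm13938 and Gm13522, which had at most 4 reads in any library.

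The Z-disc members were less alike. Alpha-actinin crosslinks actin filaments at the Z-disc, Actn2 being made in all skeletal fibers and the heart and Actn3 in fast skeletal fibers alone, and myotilin binds alpha-actinin and filamin C there. Myot (ENSMUSG00000024471, chromosome 18, 44334074 to 44355724) had 1059.7, 1629.6 and 1206 CPM over DTA-1 replicates 1 to 3, against 658, 564 and 1173 CPM over isotype replicates 1 to 3. Isotype replicate 3 lay between the DTA-1 libraries, and the log2 fold change was 0.70 ± 0.35 (SE, adjusted p = 0.415 in edgeR). Actn2 (ENSMUSG00000052374, chromosome 13, 12269426 to 12340760) had 1166, 1793 and 1819 CPM with DTA-1 and 1387, 789 and 1075 CPM with isotype, in order of replicate number. Here isotype replicate 1, not 3, reached into the DTA-1 range, and the log2 fold change of 0.56 ± 0.32 was the smallest of the 9 (adjusted p = 0.448 in edgeR).

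Actn3 (ENSMUSG00000006457, chromosome 19, 4861216 to 4877909) varied most. It stood at 4123, 4440.0 and 977 CPM over DTA-1 replicates 1 to 3, against 1029, 826 and 3264 CPM over isotype replicates 1 to 3. The highest library was 5.37 times the lowest, where Mybpc2 spanned 4.76 times and the other 7 genes 2.31 to 3.39 times. High and low libraries were found in both groups: DTA-1 replicate 3 was among the low ones and isotype replicate 3 among the high ones. The log2 fold change of 0.90 carried an SE of 0.72, with an adjusted p of 0.573 in edgeR. Omitting isotype replicate 3 gave 1.80, omitting DTA-1 replicate 3 gave 1.33, and omitting replicate 2 of either group gave 0.58.

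Myosin-binding protein C sits on the thick filament, Mybpc1 being the slow skeletal form that many fast fibers also carry and Mybpc2 the fast skeletal form. Mybpc1 (ENSMUSG00000020061, chromosome 10, 88518279 to 88605152) had 2819, 4286 and 3878 CPM over DTA-1 replicates 1 to 3, against 2170.1, 1563 and 2642 CPM over isotype replicates 1 to 3. The groups did not overlap, and the log2 fold change was 0.78 ± 0.32 (SE, adjusted p = 0.391 in edgeR). Mybpc2 (ENSMUSG00000038670, chromosome 7, 44501699 to 44524656) had 1568, 2993 and 805 CPM with DTA-1 and 910.3, 628 and 1452 CPM with isotype, in order of replicate number. As with Actn3, DTA-1 replicate 3 was low among its group and isotype replicate 3 high in its own. The log2 fold change of Mybpc2 was 0.84 ± 0.53 (SE, adjusted p = 0.488 in edgeR) and came to 0.25 without DTA-1 replicate 2. The cardiac form Mybpc3 had at most 0.184 CPM in any library.

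The myomesins bridge neighboring thick filaments in the M-band, Myom1 in all striated muscle and Myom2 chiefly in fast fibers and the heart. Myom1 (ENSMUSG00000024049, chromosome 17, 71002633 to 71126856) had 3259, 4824 and 3339 CPM over DTA-1 replicates 1 to 3, against 1720.3, 1481 and 3475 CPM over isotype replicates 1 to 3. Isotype replicate 3 lay above 2 of the 3 DTA-1 libraries, and the log2 fold change was 0.77 ± 0.41 (SE, adjusted p = 0.427 in edgeR). Myom1 shares 207 exonic bases with Myl12a on the opposite strand, which had 6592 to 9593 reads, and the strand setting of the counting is not given in the sources used here. Myom2 (ENSMUSG00000031461, chromosome 8, 15057653 to 15133541) had 1378, 2266 and 1421 CPM with DTA-1 and 865, 669 and 1318 CPM with isotype, without overlap. Its log2 fold change was 0.83 ± 0.35 (SE, adjusted p = 0.393 in edgeR).

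Without overlap between groups were therefore 3 of the 9 genes, Neb, Mybpc1 and Myom2, against 8.60% of all genes tested with the 3 DTA-1 libraries all above the isotype ones. With 5 libraries a gap between groups is more common. Each count is set beside the share of all genes with the DTA-1 libraries left in the fit all above the isotype ones. Omitting DTA-1 replicate 1 left 6 of the 9 without overlap (20.3% of all genes), omitting DTA-1 replicate 2 left 3 (9.62%) and omitting DTA-1 replicate 3 left 5 (12.8%). Omitting isotype replicate 1 left 4 (13.6%), omitting isotype replicate 2 left 3 (10.4%) and omitting isotype replicate 3 left 6 (19.7%). Leaving out isotype replicate 3 also brought the median log2 fold change of the 9 genes to 1.22 and the number at an unadjusted p under 0.05 to 7 of 9, against 9.79% of all genes tested in that fit. Leaving out DTA-1 replicate 2 brought the median to 0.57 and that number to 0, against 1.21% of all genes. In each of the 6 refits without 1 library all 9 fold changes were positive and none passed edgeR, the smallest adjusted p being 0.116.

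Levels between genes can be compared only per length, and on the scale of CPM per kilobase of annotated exon Actn3 was the highest in both groups on average. It had 1096 ± 660 CPM per kb under DTA-1 and 588 ± 466 under isotype (SD over 3 libraries). Mybpc1 followed with 809 ± 167 under DTA-1 and 469 ± 119.5 under isotype, then Myot with 588 ± 134 under DTA-1 and 361 ± 148 under isotype. Next came Mybpc2 with 495 ± 308 under DTA-1 and 276 ± 116 under isotype, Actn2 with 419.7 ± 97.4 under DTA-1 and 286 ± 78.9 under isotype, and Myom1 with 364 ± 84.3 under DTA-1 and 213 ± 104 under isotype. Myom2 had 191 ± 56.6 CPM per kb under DTA-1 and 107 ± 37.6 under isotype, and Neb 153 ± 30.5 under DTA-1 and 84.6 ± 36.2 under isotype. Ttn, with the most reads of the 9, was lowest per length in every library, at 46.1 ± 13.5 CPM per kb under DTA-1 and 23.7 ± 6.20 under isotype. Neighbors in this order overlapped in both groups, except Neb above Ttn in both and Myom1 above Myom2 with DTA-1. These values divide by the union of all annotated exons, so a gene with many alternative exons is understated.

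The summed reads of the 9 genes kept a nearly constant proportion to other muscle transcripts. They were 0.198, 0.202 and 0.187 of those of the striated muscle reference list over DTA-1 replicates 1 to 3, and 0.184, 0.208 and 0.197 over isotype replicates 1 to 3. The highest ratio was 1.127 times the lowest, and the log2 difference between group means was -0.005 (two-sided exact permutation test p = 1.0, n = 3 each, where 0.1 is the smallest p that 3 against 3 allows). Scaled by that list in place of library size, the 9 log2 fold changes were 0.21 for Actn3, 0.07 for Ttn and 0.03 for Neb, and the other 6 lay between -0.35 for Actn2 and -0.02 for Myom1 and Myom2, where the median of all genes tested was -0.95. Their adjusted p then lay between 0.39 and 0.956 in edgeR, and all 9 overlapped between groups. On that scale 0.121% of all genes had the DTA-1 libraries all above the isotype ones, and the share with them all below was not counted. The list itself took 12.7% ± 2.08 of counts under DTA-1 and 7.90% ± 2.30 under isotype (SD over 3 libraries).

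**Figure D2:**
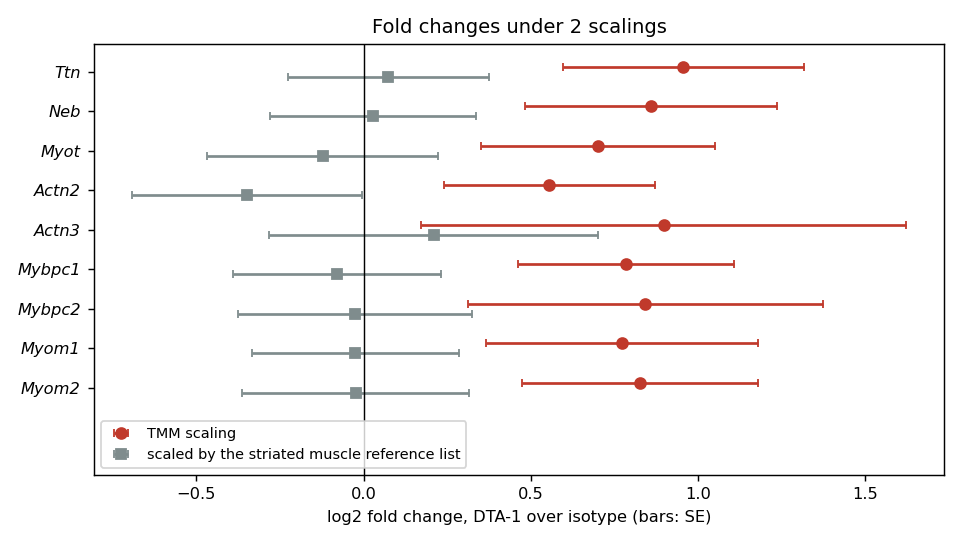
Log2 fold change, DTA-1 over isotype, of the 9 scaffold genes in edgeR, with SE bars (n = 3 libraries a group). Under TMM scaling (red) all 9 lie between 0.56 and 0.96, and scaled by the striated muscle reference list (gray) they lie between -0.35 and 0.21.

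Within the muscle transcripts, the fast and slow paralogs did not keep a fixed ratio. Reads of Actn3 per read of Actn2 were 3.54, 2.48 and 0.537 over DTA-1 replicates 1 to 3, and 0.742, 1.05 and 3.04 over isotype replicates 1 to 3, a span of 6.58 times. The high and the low ratios were split across both groups. Reads of Mybpc2 per read of Mybpc1 were 0.556, 0.698 and 0.208 with DTA-1 and 0.419, 0.402 and 0.550 with isotype, a span of 3.36 times with its lowest value also in DTA-1 replicate 3. By contrast Myom2 per Myom1 stayed between 0.379 and 0.503, and Ttn per Neb between 1.03 and 1.59. The ratio Ttn per Neb was lowest in DTA-1 replicate 1 and isotype replicate 3, the libraries in which Actn3 per Actn2 was highest, and highest in DTA-1 replicate 3, in which Actn3 per Actn2 was lowest. The log2 differences between group means were 0.33 for Actn3 per Actn2, -0.07 for Mybpc2 per Mybpc1, -0.01 for Myom2 per Myom1 and 0.02 for Ttn per Neb, and each of these 4 changed sign when certain single libraries were left out. Actn3 per Actn2 then ran from -0.21 without DTA-1 replicate 1 to 1.15 without DTA-1 replicate 3, and Mybpc2 per Mybpc1 from -0.41 without DTA-1 replicate 2 to 0.46 without DTA-1 replicate 3. Two-sided exact permutation tests gave p = 0.9, 1.0, 1.0 and 0.9, and over all 5 ratios tested each adjusted p was 1.0.

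**Figure D3:**
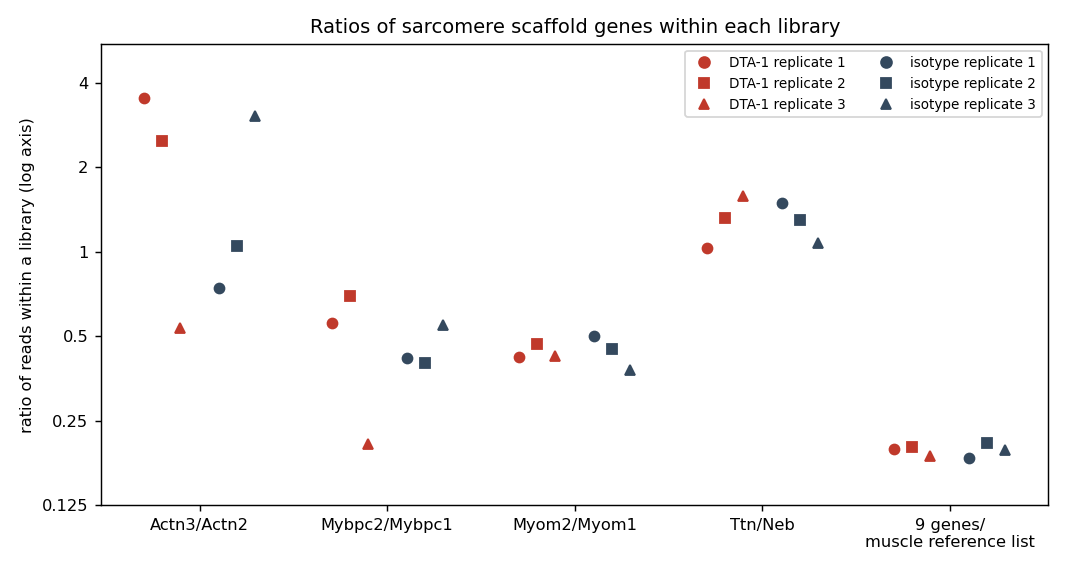
Ratio of reads within each library (log axis) for paralog pairs, Ttn per Neb, and the 9 scaffold genes per striated muscle reference list, with DTA-1 libraries (red) left of isotype libraries (dark blue). Actn3 per Actn2 spans 0.537 to 3.54 with high and low libraries in both groups, while the 9 genes per reference list stay between 0.184 and 0.208.

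Fiber-type genes of the marker lists were read beside these ratios. The slow troponin T gene Tnnt1 was highest in DTA-1 replicate 3, at 1266 CPM, against 458 and 496 CPM in DTA-1 replicates 1 and 2 and 314 to 514 CPM in isotype libraries. The slow troponin I gene Tnni1 was also highest there, at 211 CPM against 38.7 to 124 CPM in the other libraries. Of the other slow genes, Casq2, Tnnc1 and Myh7b were highest there too, Myh7b with only 12 to 75 reads in a library. Myl3 and Atp2a2 were instead highest in DTA-1 replicate 2. Myl3 had 2128, 4365 and 4262 CPM over DTA-1 replicates 1 to 3, and Atp2a2 had 1287, 1589 and 1499 CPM. The fast calcium pump gene Atp2a1 had 10354, 14289 and 5957 CPM over DTA-1 replicates 1 to 3 and 3484, 3761 and 10849 CPM over isotype replicates 1 to 3, so that the 3 libraries with a high Actn3 were the 3 with a high Atp2a1. Myh4, the myosin of the fastest fibers, had 2407, 5250.0 and 539 CPM over DTA-1 replicates 1 to 3 and 155, 1111 and 765 CPM over isotype replicates 1 to 3, and was not high in isotype replicate 3. The fast genes differed among themselves in DTA-1 replicate 3. Atp2a1, Myh4, Pvalb and Tnnc2 were at their lowest of the DTA-1 libraries there, Tnnc2 with only 71 to 90 reads in those libraries. Tnnt3, Tnni2, Mylpf, Casq1, Myl1 and Myh1 were instead lowest in DTA-1 replicate 1, and Myh2 in DTA-1 replicate 2. Myh1 stood at 17944 CPM in DTA-1 replicate 3, against 15333 and 19839 CPM in DTA-1 replicates 1 and 2. In isotype replicate 2 the slow and cardiac genes Myh7 and Myl2 stood at 86.4 and 54.4 CPM, against at most 6.11 and 0.141 CPM elsewhere. The part of fiber type in the values of the 9 genes was not tested.

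Partners and paralogs of the scaffold proteins were taken from 5 lists. Of 65 tested partner genes 58 had positive fold changes, against 47.1% of all genes tested. None passed edgeR (smallest adjusted p = 0.39) and 1 passed DESeq2. For the counts of partners at an unadjusted p under 0.05, 5.21% of all genes tested were higher and 7.52% lower in edgeR. Without isotype replicate 3 the share higher was 9.79% of all genes, and without DTA-1 replicate 2 it was 1.21%. All list medians but that of the paralogs were positive, and all 5 were negative relative to the striated muscle reference list. Among the 27 Z-disc and costamere partners 26 fold changes were positive, with a median of 0.57 on the log2 scale, and 5 genes were higher at an unadjusted p under 0.05 (19 without isotype replicate 3, 1 without DTA-1 replicate 2). Csrp3, the muscle LIM protein of the Z-disc, had 1066, 1282 and 1012 CPM over DTA-1 replicates 1 to 3 and 594, 363 and 730 CPM over isotype replicates 1 to 3. Its log2 fold change was 0.99 ± 0.31 (SE, adjusted p = 0.39 in edgeR). Nexn, whose product nexilin binds actin at the Z-disc, averaged 416 ± 63.6 CPM under DTA-1 and 256 ± 59.7 CPM under isotype (SD over 3 libraries). Palld, a broadly expressed relative of myotilin, was the exception of this list, averaging 207 ± 94.9 CPM with DTA-1 and 243 ± 43.6 CPM with isotype.

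Of 15 listed M-band and thick filament partners 13 were tested, all with positive fold changes and a median of 0.79 on the log2 scale. At an unadjusted p under 0.05, 7 of them were higher, against 5.21% of all genes tested. The number was 10 without isotype replicate 3 (9.79% of all genes) and 1 without DTA-1 replicate 2 (1.21%). Mybph, which encodes the related myosin-binding protein H, had 132, 93.3 and 88.9 CPM over DTA-1 replicates 1 to 3 and 56.0, 19.2 and 51.2 CPM over isotype replicates 1 to 3. The groups did not overlap, where 8.60% of all genes tested had the DTA-1 libraries all above the isotype ones. The log2 fold change of Mybph, 1.31 ± 0.40 (SE, adjusted p = 0.39 in edgeR), was the largest among the partners. Myom3, the third myomesin, averaged 764 ± 108 CPM under DTA-1 and 439 ± 103 CPM under isotype (SD over 3 libraries), also without overlap. Among the 12 sarcomere chaperone genes 10 fold changes were positive, the median was 0.53, and 3 genes were higher at an unadjusted p under 0.05 (7 without isotype replicate 3, 0 without DTA-1 replicate 2). Smyd1, a muscle methyltransferase that acts in myosin assembly, averaged 399.5 ± 92.2 CPM under DTA-1 and 227 ± 69.9 CPM under isotype. The small heat shock gene Hspb2 averaged 59.1 ± 15.8 CPM under DTA-1 and 35.0 ± 8.88 CPM under isotype, with overlap.

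The thin filament list held both directions. Its 11 genes had a median log2 fold change of 0.73, with 9 positive and 2 negative. At an unadjusted p under 0.05, 5 were higher and 2 lower, against 5.21% and 7.52% of all genes tested. The number higher was 8 without isotype replicate 3 (9.79% of all genes) and 3 without DTA-1 replicate 2 (1.21%). Lmod3, a leiomodin that elongates thin filaments in skeletal muscle, had 220, 269 and 209 CPM over DTA-1 replicates 1 to 3 and 102, 87.1 and 158 CPM over isotype replicates 1 to 3 (log2 fold change 1.01 ± 0.26 SE, adjusted p = 0.39 in edgeR). Nebl, which encodes the nebulin relative nebulette of heart and non-muscle cells, was lower with DTA-1. It had 15.4, 9.08 and 8.80 CPM over DTA-1 replicates 1 to 3, against 22.3, 35.6 and 38.3 CPM over isotype replicates 1 to 3, without overlap. For 9.38% of all genes tested the DTA-1 libraries all lay below the isotype ones. The log2 fold change of Nebl was -1.53 ± 0.31 (SE), with an adjusted p of 0.39 in edgeR and of 0.00683 in DESeq2, by which it fell. In edgeR Nebl passed without DTA-1 replicate 1 (adjusted p = 0.0399), a fit in which 601 of 16303 genes passed. Its adjusted p was 0.224 to 0.859 with another single library left out, and 0.00552 relative to the striated muscle reference list. On that scale, where 14.4% of all genes passed, Actn4 (0.0158) and Lasp1 (0.0194) passed edgeR too. Tmod4, a tropomodulin that caps thin filaments, was chosen here after its values were seen. It was also among the 601 genes that passed edgeR without DTA-1 replicate 1 (log2 fold change 1.21, adjusted p = 0.0403). Lasp1, a nebulin family gene made outside muscle, averaged 36.4 ± 2.62 CPM with DTA-1 and 55.9 ± 19.1 CPM with isotype.

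The non-muscle alpha-actinins also stood lower with DTA-1 on average, opposite to Actn2 and Actn3. Actn4, the broadly expressed non-muscle form, had 299, 166 and 205 CPM over DTA-1 replicates 1 to 3 and 378, 319.1 and 319.5 CPM over isotype replicates 1 to 3. Its groups did not overlap, against 9.38% of all genes tested with the 3 DTA-1 libraries all below the isotype ones, and the log2 fold change was -0.60 ± 0.25 (SE, adjusted p = 0.392 in edgeR). Actn1, the form of smooth muscle and of non-muscle cells, had 132, 44.9 and 223 CPM over DTA-1 replicates 1 to 3 and 187, 210.1 and 164 CPM over isotype replicates 1 to 3, with overlap (log2 fold change -0.49 ± 0.51 SE, adjusted p = 0.659 in edgeR). Without DTA-1 replicate 2, its lowest library, the log2 fold change of Actn1 was -0.07, and that of Actn4 -0.43. The squamous markers given above were also lower with DTA-1 on average, and their part in the values of Nebl, Lasp1 and the non-muscle actinins was not tested.

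**Figure D4:**
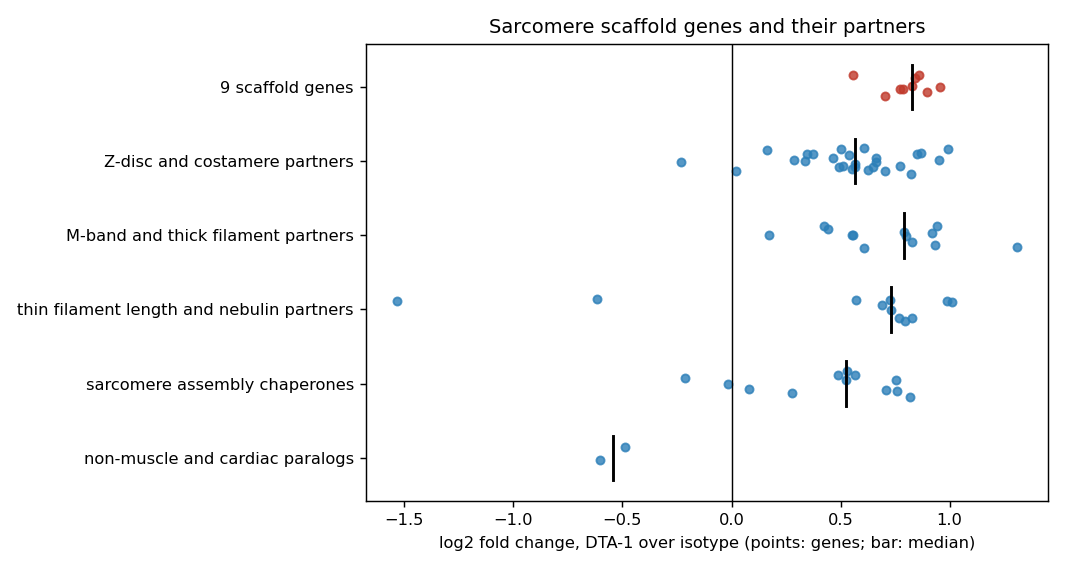
Log2 fold change, DTA-1 over isotype, of each tested gene (points) in the scaffold set and 5 partner lists, with the median of each (bar). The 9 scaffold genes center on 0.83, the M-band and thick filament partners on 0.79, and the non-muscle actinins, the only 2 tested genes of the paralog list, on -0.54.

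The genes whose pattern over the 6 libraries was most like the mean log2 CPM of the 9 were Cops4, BX649560.1, Ybx1, Ankrd33b and Rpa1, out of 10100 genes with a symbol and a mean log2 CPM of 3 or more. Their Pearson correlations with that mean were 0.9985, 0.9961, 0.9948, 0.9943 and 0.9941, a description over 6 libraries with a shared scaling. Among the 9 genes themselves the correlation with the mean ran from 0.670 for Actn2 and 0.810 for Actn3 to 0.996 for Myom2. Cops4, a subunit of the COP9 signalosome, had 107, 129 and 105 CPM over DTA-1 replicates 1 to 3 and 86.7, 78.1 and 108 CPM over isotype replicates 1 to 3. Ankrd33b spanned 3.11 times between its lowest and highest library, close to the span of Neb at 3.10, while Cops4 spanned 1.65 times.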

How the data were processed

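Read counts per Ensembl gene were used as deposited, 1 library per file. The submitters' processing notes list HTSeq 0.6.1p1, STAR, cutadapt 1.13 and DESeq2 1.14.1 and the build mm10. The sources used here give no settings, annotation or strand. Groups were taken from the labels. The 9 genes and all gene lists were chosen with earlier results of these data known. Genes with a count of at least 10 in enough libraries and 15 in all (filterByExpr) were tested with edgeR 4.0.16 (quasi-likelihood, robust, TMM scaling) in R 4.3.3, DTA-1 against isotype, with Benjamini-Hochberg adjustment over the 15763 genes at 0.05. CPM are counts normalised to the TMM-scaled library size. The SE of a log2 fold change in edgeR is its absolute value divided by the square root of the quasi-likelihood F statistic. DESeq2 1.42.0, limma-voom (limma 3.58.1), other scalings and filters, a replicate block and fits without each library were alternatives. Ratios within libraries were compared by exact permutation tests (scipy 1.17.1). Symbols, positions and exon lengths are from GENCODE M21 on GRCm38, which gave a symbol to 54079 of 54232 identifiers; promoters are from RefSeq (GRCm38.p6). Named genes were the 9, the 2 with the smallest p in each partner list, and the 5 whose pattern was most like the mean of the 9. Palld, Lasp1, Mybpc3, Tmod4 and fiber-type genes were named beside them after their values were seen. The scripts were tested on simulated data.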

Additional observations from a re-analysis of the deposited data

How the results depend on the processing

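Every alternative left all 9 scaffold genes short of an adjusted p under 0.05. All 9 log2 fold changes were positive in each fit except the one scaled by the striated muscle reference list, which by construction removes what muscle transcripts share: there Myot was -0.12, Actn2 -0.35, Mybpc1 -0.079, Mybpc2 -0.025, Myom1 -0.024 and Myom2 -0.024, the median was -0.024, the number without overlap was 0, and 2276 of all genes were called (2 higher). The median of the 9 was 0.57 to 1.22 without single libraries and 0.68 to 0.86 under other scalings, filters and tools. Library totals alone gave the 0.68 and moved the median of all genes tested to -0.19. The number of the 9 without overlap was 3 to 6 without single libraries, where 9.62% to 20.3% of all genes had the DTA-1 libraries all above the isotype ones. Genes called in the whole table numbered 180 by DESeq2 and 0 to 601 by edgeR without single libraries, the 601 arising without DTA-1 replicate 1; the cause was not tested. The replicate numbers did not pair the samples (correlations of deviations 0.017, -0.333 and -0.086), and with the replicate block 0 genes were called and the median of the 9 was 0.84. Without single libraries the log2 difference in ratio ran from -0.21 to 1.15 for Actn3 per Actn2, -0.41 to 0.46 for Mybpc2 per Mybpc1, -0.119 to 0.084 for Myom2 per Myom1, -0.13 to 0.18 for Ttn per Neb and -0.049 to 0.037 for the 9 genes per reference list. Counting depth added little to the spread of these genes, each with at least 14968 reads in a library. The counts without overlap and partner list values without single libraries, and the reduced marker sums, were alternatives chosen after seeing the data.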
